A study of Rattus norvegicus with 56 samples.

Results

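The comparison described here sets 4 liver libraries of female IUGR-HFhf rats against 3 of female CON rats, all taken at zeitgeber time 16 (ZT16). These 7 libraries were chosen from the 56 of the series by their labels for sex, time and diet. IUGR-HFhf rats came from dams given 50% of their calories from gestation day 10 until birth (intrauterine growth restriction, IUGR). These dams were then switched to a diet high in fat and fructose (HFhf), with 25% fructose per the labels. HFhf rats, used as a second comparison with 4 libraries, came from unrestricted dams that ate a Western diet from gestation day 11 and drank water with 25% fructose. CON rats were the offspring of dams that stayed on regular chow. All were Sprague-Dawley offspring whose livers were collected on day 180, and ZT16 falls in the dark, active phase of a cycle of 12 h light and 12 h dark. The restriction before birth and the diet after it differ together between IUGR-HFhf and CON, so their parts cannot be told apart in that comparison. The labels name the litter of no animal, so litter mates among these samples are possible and the p-values take no account of them. The spread behind the p-values was estimated for each gene over all 56 libraries. These include rats of a group named IUGR-RC, whose labels give 50% restriction from gestation day 10 and no fructose. IUGR-HFhf and CON males at ZT16 (7 libraries) and females at ZT4 (7 libraries) were used in further comparisons. One label gives the tissue as mouse liver, but the organism given and the genome build are those of the rat.

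The liver turns dietary sugar into fatty acids, packs them as triglyceride, makes and clears cholesterol, and breaks down amino acids. The fat-making genes are switched on largely by SREBP1 and ChREBP, which respond to insulin and sugar, whereas the cholesterol-making genes are switched on by SREBP2 when sterols in the cell are low. Liver-resident macrophages (Kupffer cells) and hepatocytes also express genes that type I interferon switches on through the factors IRF9 and IRF7.

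In the IUGR-HFhf livers, genes of fatty acid synthesis (Scd1, Fasn, Acaca, Me1) and lipid storage (Plin2, Dgat2) were higher than in CON livers. Genes of cholesterol synthesis (Hmgcs1, Sqle, Idi1), interferon-stimulated genes (Irf7, Ifit3, Irf9), amino acid breakdown (Asl, Hpd), the growth hormone target Igf1 and the macrophage receptor Marco were lower. Of 11047 genes tested, 128 (1.16% of all tested) were higher and 117 (1.06%) were lower at an adjusted p under 0.05 (edgeR quasi-likelihood test), which is what a call means below; 1533 genes had an unadjusted p under 0.05. Of the called genes, 66 rose and 57 fell at least 2-fold. The median log2 fold change of all genes was 0.01, and 51.7% of genes were above 0. Levels are given in CPM, a gene's reads scaled to the size of its library as adjusted by TMM normalization. The CPM of the groups did not overlap for 812 genes that were higher (7.35% of those tested) and 708 that were lower (6.41%); 235 of the 245 called genes were among these. The number of calls depended on single control libraries: it was 74 without CON library 3, 103 without CON library 2 and 139 without IUGR-HFhf library 2.

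**Figure D1:**
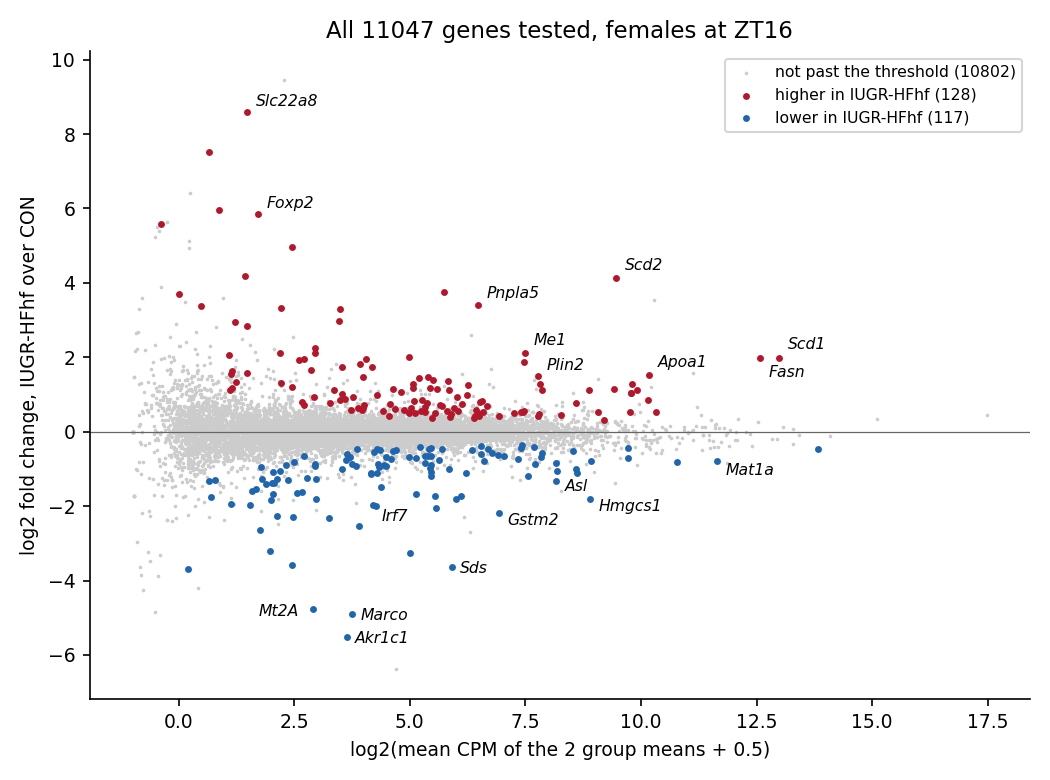
All 11047 genes tested in female livers at ZT16. The horizontal axis is log2 of the average of both group means in CPM plus 0.5, the vertical axis is the log2 fold change of IUGR-HFhf over CON, and each point is a gene. The 128 genes called higher are red and the 117 called lower are blue, and the named genes include Scd2 at a log2 fold change of 4.12 and Marco at -4.89.

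The libraries held 7116716 to 15743419 counted reads in IUGR-HFhf, 9525492 to 15110105 in HFhf and 8031922 to 13642442 in CON, within the range of 5549530 to 19065339 over all 56. The first principal component of the 1000 most variable genes (44.6% of their variance) placed the IUGR-HFhf libraries between -18.8 and -10.7 and the CON libraries between 11.9 and 23.4. CON library 1 lay nearest to the IUGR-HFhf libraries, and IUGR-HFhf library 4 stood apart from its group on the second component. The numbers in the sample titles fall into 2 runs, each with libraries of both groups, and the first holds only library 1 of the CON group. Hepatocyte markers such as Alb and Ttr were high in every library, with summed levels of 241150 to 344691 CPM in IUGR-HFhf and 205062 to 252678 CPM in CON. Most of the sum was Alb, at 163470 to 267723 CPM in IUGR-HFhf and 133214 to 184414 CPM in CON. Of the 12 hepatocyte markers, 5 were above 0 and 7 below, with a median log2 fold change of -0.19. The groups did not overlap for 1 that was higher and 4 that were lower, against 7.35% and 6.41% of all genes. Of 12 exocrine pancreas markers, the carboxypeptidase gene Cpa1 had 12.0, 0.30, 77.2 and 3.11 CPM in IUGR-HFhf libraries against 72.9, 209 and 75.4 CPM in CON libraries, but the other 11 summed to 1.35 to 3.96 CPM in IUGR-HFhf and 2.69 to 4.29 CPM in CON. The trypsinogen gene Prss1 was at 0 in every IUGR-HFhf library and reached 0.34 CPM in CON, so the level of Cpa1 was not shared by the rest of its list. The fat cell hormone Adipoq reached 3.70 CPM in IUGR-HFhf and 0.07 CPM in CON. Fabp4 had 2.64, 4.31, 8.04 and 2.28 CPM in IUGR-HFhf and 2.01, 0.61 and 0.16 CPM in CON, without overlap. Of the 6 fat tissue markers tested, 4 were above 0 and 2 below, with a median log2 fold change of 3.64. The summed level of the list was 32.2 to 74.3 CPM in IUGR-HFhf and 48.8 to 104 CPM in CON. Some genes that every liver uses (Echs1, Rplp2, Pnpla2) were listed at 0 in all 7 libraries, and the elongase Elovl6 at or near 0, so these carry no information here.

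The interferon-stimulated genes gave the largest number of falls of any list. The promoters of 4 called members are shown because these genes fell together and share a match to the core of the interferon-stimulated response element, the site that IRF9-containing complexes and IRF7 bind. The core was searched as GAAANNGAAA on both strands of the RefSeq promoter windows (build GRCr8), each 300 bases long, and the capitals mark every match.
Ifit3: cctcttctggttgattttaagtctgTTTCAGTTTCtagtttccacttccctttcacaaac
Irf7: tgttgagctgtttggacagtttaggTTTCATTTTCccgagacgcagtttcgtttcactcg
Oasl2: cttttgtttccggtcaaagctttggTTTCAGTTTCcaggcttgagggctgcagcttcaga
Oas1b: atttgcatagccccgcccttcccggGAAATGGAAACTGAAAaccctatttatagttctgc
These windows lie at chr1:241527257-241527316 on the plus strand for Ifit3, and on the minus strand at chr1:205800058-205800117 for Irf7, chr12:47383302-47383361 for Oasl2 and chr12:41395877-41395936 for Oas1b. The first matched base stood 44 bases before the annotated start of Ifit3, 69 before that of Irf7, 151 before that of Oasl2 and 59 before that of Oas1b, where 2 matches overlap. The core was present in the promoter of 16 of the 22 tested interferon-stimulated genes that have an entry, against 1034 of all 27457 promoters (3.77%). Of the 7 called members with an entry 5 had a match, and Irf9 and Mx1 had none. A match is a description of the letters and does not show binding. The list was made of genes known to respond to interferon, so the share of its promoters with the core follows from how it was drawn up.

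Of the 29 interferon-stimulated genes tested, 28 had a log2 fold change below 0 and 10 were called lower, with none higher, against 1.06% of all genes called lower. The median over the list was -0.75. In 16 of the 29 the CPM of every IUGR-HFhf library lay below every CON library, against 6.41% of all genes tested. The called members were Irf7, Ifit3, Irf9, Usp18, Mx1, Mx2, Isg15, Oasl2, Oas1b and Psmb8.

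Irf7, the transcription factor that amplifies the type I interferon response, had 7.58, 4.61, 8.17 and 8.28 CPM in the IUGR-HFhf livers against 26, 30.7 and 29 CPM in the CON livers. The HFhf livers, at 12.3, 21.8, 15.4 and 18.8 CPM, lay between the other groups, and no library of one group reached another. Its log2 fold change over CON was -1.97 (SE 0.36, adjusted p = 0.00154). Ifit3, an interferon-induced protein that acts against viral RNA, had 3.18, 1.79, 3.13 and 3.0 CPM in IUGR-HFhf and 6.97, 12.2 and 7.67 CPM in CON, log2 fold change -1.63 (SE 0.26, adjusted p = 0.00016). Irf9, the DNA-binding subunit of the complex that interferon activates, had 12.8, 14.3, 17.7 and 14.3 CPM in IUGR-HFhf and 26, 31.1 and 25.8 CPM in CON (log2 fold change -0.90, SE 0.15, adjusted p = 0.000287). The groups did not overlap for either gene.

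Usp18, which removes ISG15 from proteins and dampens the interferon receptor, had 2.57, 1.79, 4.34 and 2.80 CPM in IUGR-HFhf against 13.5, 19.4 and 12.3 CPM in CON, the largest fall of the list (log2 fold change -2.32, SE 0.53, adjusted p = 0.0107). Mx2, an antiviral GTPase, averaged 7.40 ± 1.55 CPM in IUGR-HFhf and 30.1 ± 14.7 CPM in CON (SD, n = 4 and 3), and CON library 2 was the highest of the CON libraries at 46.3 CPM. Its relative Mx1 had a log2 fold change of -1.80, the ubiquitin-like Isg15 one of -1.31, the oligoadenylate synthetase genes Oasl2 and Oas1b -1.10 and -1.40, and the immunoproteasome subunit Psmb8 -0.68. Oas2, which is not on the list and was chosen after its values were seen, also fell, with 0.64 ± 0.42 CPM in IUGR-HFhf and 2.73 ± 0.08 CPM in CON. Its IUGR-HFhf values rested on 8, 1, 18 and 7 reads. The call of Oas2 was lost without IUGR-HFhf library 1 or 2 or without any CON library (adjusted p up to 0.0812). Irf7, Ifit3, Irf9 and Mx1 were called whichever library was left out, whereas the number of called members ranged from 4 without CON library 2 to 10 without IUGR-HFhf library 4. It was 5 without IUGR-HFhf library 2, without IUGR-HFhf library 3 or without CON library 3, and 6 without IUGR-HFhf library 1.

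The interferon genes were set against the other sex and time. In females at ZT4, Irf7 averaged 19.4 ± 11.7 CPM in IUGR-HFhf and 19 ± 4.59 CPM in CON, and in males at ZT16 15.4 ± 3.18 and 27.7 ± 4.09 CPM. The list's median was -1.01 for the change at ZT16 minus that at ZT4 in females, and -0.56 for the change in females minus that in males. No member passed the test in either difference. Against the HFhf livers the median was -0.33, with 2 of 29 members above 0 and none called.

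Of the Kupffer cell and macrophage markers 1 was called lower, the receptor gene Marco, and the other 16 of the 17 tested did not pass the test (1.06% of all genes were called lower). Each of the 17 had a log2 fold change below 0, with a median of -0.51, and in 6 every IUGR-HFhf library lay below every CON library, against 6.41% of all genes. Their summed level ranged from 562 to 824 CPM in IUGR-HFhf and from 925 to 1094 CPM in CON. Marco, a scavenger receptor of resident macrophages, had 2.10, 0, 0.13 and 0.72 CPM in IUGR-HFhf against 15.4, 21.1 and 38.8 CPM in CON, and 0.46, 3.24, 1.36 and 1.42 CPM in HFhf. The IUGR-HFhf and CON libraries were far apart (log2 fold change -4.89, SE 0.74, adjusted p = 0.00016), and Marco was called under each alternative tried.

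The fall of Marco was far larger than that of the defining Kupffer cell marker Clec4f, which had 121, 83.9, 116 and 138 CPM in IUGR-HFhf and 176, 172 and 212 CPM in CON. The Clec4f groups did not overlap, but its log2 fold change of -0.70 did not pass the test (SE 0.23, adjusted p = 0.103), nor did those of C1qa (-0.63), Cd68 (-0.65) and Cd5l (-0.76). Mpeg1, a pore-forming protein of macrophages chosen after its values were seen, averaged 188 ± 22.6 CPM in IUGR-HFhf and 389 ± 20.8 CPM in CON (log2 fold change -1.05, adjusted p = 0.000287), and was called whichever library was left out. Siglec1, a macrophage lectin that interferon raises and likewise chosen after its values were seen, had a log2 fold change of -0.96 (adjusted p = 0.0287), and was called without CON library 2 or IUGR-HFhf library 4 but not without any of the others. In bulk liver RNA, fewer cells of a type and less RNA per cell cannot be told apart, and the part of the macrophage markers in the interferon values was not tested. The number of called macrophage markers was 8 with limma voom and sample weights, and 2 without IUGR-HFhf library 4.

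**Figure D2:**
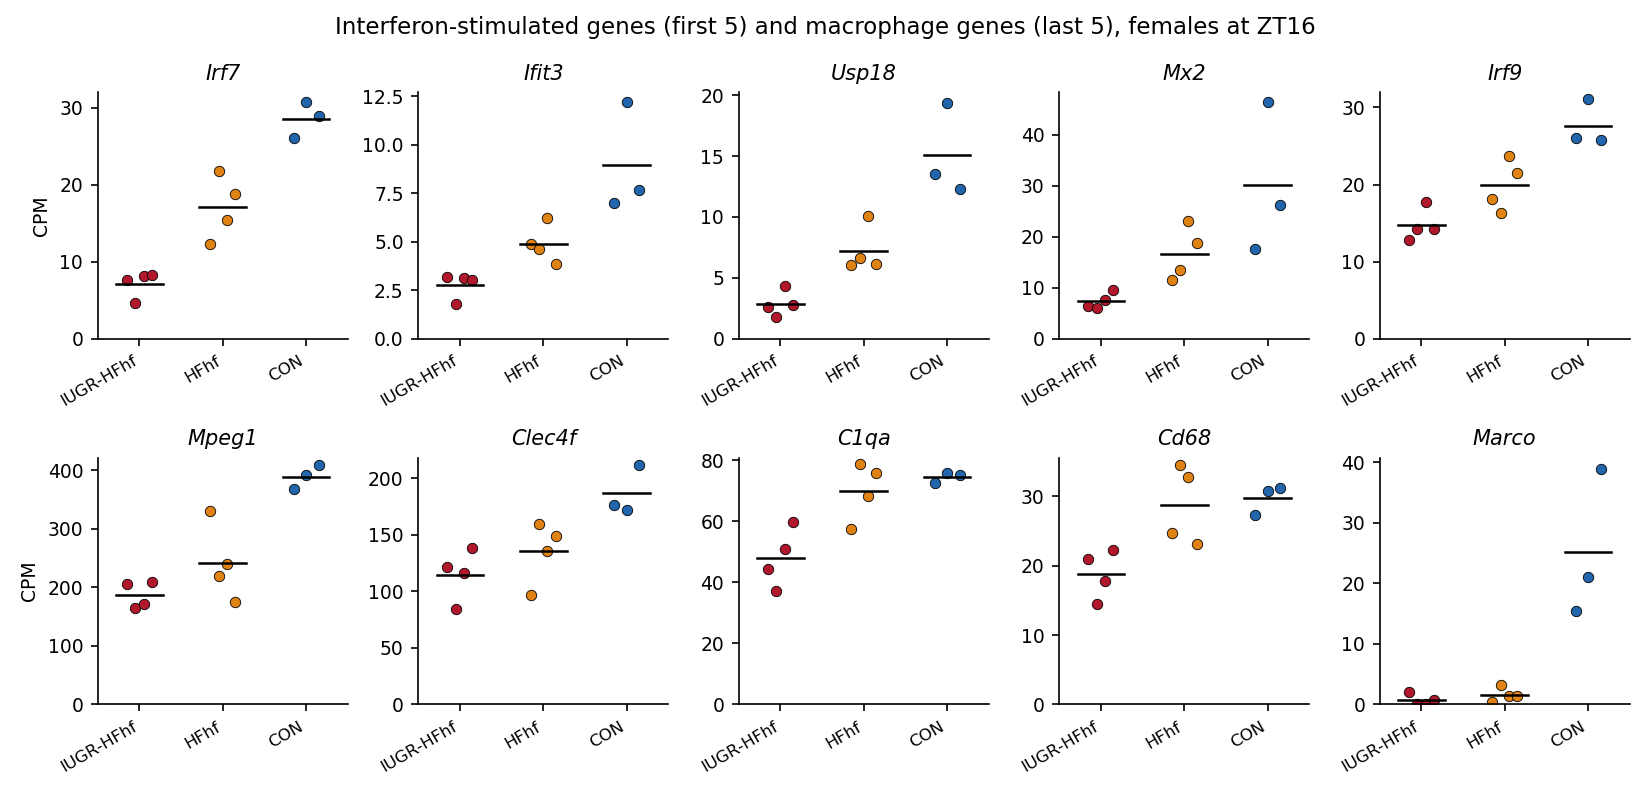
CPM of interferon-stimulated genes (first 5 panels) and macrophage genes (last 5 panels) in female livers at ZT16. Each point is a library of IUGR-HFhf, HFhf or CON, the lines are group means, and the vertical axes start at 0. IUGR-HFhf lies below CON without overlap in each panel, with HFhf between them for Irf7, and Marco is near 0 in the IUGR-HFhf libraries.

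Fatty acid synthesis moved the other way. Of 20 genes tested, 19 had a log2 fold change above 0 and 7 were called higher, with none lower, against 1.16% of all genes called higher. The median was 0.97, and in 15 the groups did not overlap, against 7.35% of all genes. The called members were Scd1, Scd2, Fasn, Acaca, Me1, Elovl2 and the transcription factor gene Srebf1.

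Scd2, a desaturase that introduces a double bond into stearoyl-CoA, had 1060, 1838, 1719 and 728 CPM in IUGR-HFhf livers against 107, 109 and 14.8 CPM in CON livers. Every IUGR-HFhf library was higher than every CON library, and CON library 3 was far below the other CON libraries; the log2 fold change was 4.12 (SE 0.97, adjusted p = 0.0129). The HFhf livers split, with 84.6 and 112 CPM in libraries 1 and 2 and 876 and 645 CPM in libraries 3 and 4. HFhf libraries 1 and 2 belong to the first run of title numbers and 3 and 4 to the second. The part of the run in this split was not tested. Scd1, the main stearoyl-CoA desaturase of liver, had 10139, 14548, 11462 and 15834 CPM in IUGR-HFhf and 6461, 1922 and 1445 CPM in CON, log2 fold change 1.99 (SE 0.49, adjusted p = 0.0182).

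Fasn, the fatty acid synthase, had 4910, 13026, 9198 and 12068 CPM in IUGR-HFhf against 3991, 2169 and 1293 CPM in CON (log2 fold change 1.98, SE 0.49, adjusted p = 0.0196). IUGR-HFhf library 1 came close to CON library 1, and the groups did not overlap. Within the first run of title numbers the log2 difference of Fasn was 1.0 and within the second it was 2.65. For Scd1 these were 0.91 and 3.01. CON library 1 is the only control of the first run, so the first-run differences rest on that library alone. Acaca, the acetyl-CoA carboxylase that makes malonyl-CoA, averaged 1261 ± 239 CPM in IUGR-HFhf and 515 ± 140 CPM in CON (log2 fold change 1.29, adjusted p = 0.0154).

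Me1, the malic enzyme that supplies NADPH for fat synthesis, had 296, 310, 238 and 318 CPM in IUGR-HFhf, 69.9, 56.8, 174 and 144 CPM in HFhf, and 103, 50.4 and 47.9 CPM in CON. The higher HFhf values, 174 and 144 CPM, were again those of the second run of title numbers. The IUGR-HFhf libraries lay above all the others (log2 fold change over CON 2.11, SE 0.52, adjusted p = 0.0200; over HFhf 1.39, SE 0.46, adjusted p = 0.586). Elovl2, an elongase of polyunsaturated fatty acids, averaged 278 ± 86.2 CPM in IUGR-HFhf and 76.2 ± 15.6 CPM in CON, a log2 fold change of 1.87 (adjusted p = 0.00405). Srebf1, which encodes SREBP1, averaged 946 ± 164 CPM in IUGR-HFhf and 429 ± 182 CPM in CON (log2 fold change 1.14, adjusted p = 0.0292).

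The citrate-cleaving enzyme Acly and the lipid droplet protein Pnpla3 had large differences that did not pass the test in the fit reported. Of 15 alternatives, 3 called Acly: DESeq2, limma voom with sample weights, and only the compared groups in the fit. DESeq2 and limma voom were the 2 that called Pnpla3. Pnpla3 had 1983, 2263, 2752 and 2106 CPM in IUGR-HFhf against 430, 147 and 15.5 CPM in CON, a log2 fold change of 3.53 with an SE of 1.13 (adjusted p = 0.0894). Acly averaged 3355 ± 654 CPM in IUGR-HFhf and 1127 ± 429 CPM in CON (log2 fold change 1.57, adjusted p = 0.0741). Neither gene's groups overlapped. The calls of this list depended on single CON libraries. In edgeR, 2 members were called without CON library 2 and none without CON library 3. The list's median stayed between 0.79 and 1.19 over the alternatives. With limma voom and sample weights 11 were called. With only the compared groups in the fit 5 were called, and Scd1, Scd2, Fasn and Srebf1 were not among them. Against HFhf, all 20 members had a log2 fold change above 0, with a median of 0.56 and none called.

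Other genes of lipid storage and export were higher. Plin2, the coat protein of liver lipid droplets, had 352, 355, 278 and 307 CPM in IUGR-HFhf against 122, 116 and 105 CPM in CON. The groups were well separated and tight (log2 fold change 1.5, SE 0.29, adjusted p = 0.00191). Dgat2, the enzyme of the last step of triglyceride synthesis, had 1551, 1709, 1367 and 1272 CPM in IUGR-HFhf and 819, 875 and 758 CPM in CON (log2 fold change 0.85, SE 0.16, adjusted p = 0.00188). Lpcat3, which puts polyunsaturated fatty acids into phospholipids, had 115, 118, 127 and 106 CPM in IUGR-HFhf and 64.6, 70.8 and 64.7 CPM in CON (log2 fold change 0.81, SE 0.14, adjusted p = 0.00059). These genes were called under every alternative tried except, for Dgat2 and Lpcat3, the rule that also asks for a 2-fold change.

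Of 15 genes of triglyceride and phospholipid synthesis, 3 were called higher (Lpcat3, Dgat2 and the acyltransferase Agpat3, log2 fold change 0.75) and none lower, with a median of 0.15. For this list and those that follow, the share of all genes called higher was 1.16%. Plin2 was the 1 called member of 13 in the lipid droplet and lipolysis list. Of 21 lipoprotein and fatty acid uptake genes 3 were called higher. Apoa4, an apolipoprotein of triglyceride-rich particles, had 1243, 1308, 1344 and 1423 CPM in IUGR-HFhf against 654, 536 and 633 CPM in CON (log2 fold change 1.13, SE 0.24, adjusted p = 0.00542). Apoa1, the main protein of HDL, averaged 1719 ± 709 CPM in IUGR-HFhf and 600 ± 136 CPM in CON (log2 fold change 1.52, adjusted p = 0.0260), and the fatty acid binding protein Fabp2 11.9 ± 3.29 and 2.5 ± 0.69 CPM (log2 fold change 2.25, adjusted p = 0.00542). Tm6sf2, which lipidates VLDL and was chosen after its values were seen, had 65.9, 85.4, 80 and 80.3 CPM in IUGR-HFhf and 40.6, 31.6 and 35.7 CPM in CON (log2 fold change 1.11, SE 0.16, adjusted p = 0.000126). Tm6sf2 was called whichever library was left out. The call of Apoa4 was lost without CON library 2, that of Fabp2 without CON library 3, that of Agpat3 without any of CON libraries 1 and 2 and IUGR-HFhf libraries 1 to 3, and that of Apoa1 without any CON library or IUGR-HFhf library 2 or 3 (adjusted p up to 0.224).

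Part of the genes of cholesterol synthesis and uptake were lower than in CON. Of 26 genes tested, 20 were below 0 and 7 were called lower, with none higher, against 1.06% of all genes called lower. The median was -0.45, and in 11 every IUGR-HFhf library lay below every CON library, against 6.41% of all genes. Hmgcs1, which condenses acetyl units at the start of the pathway, had 331, 182, 134 and 206 CPM in IUGR-HFhf against 502, 861 and 868 CPM in CON. The groups did not overlap, and IUGR-HFhf library 1 and CON library 1 were nearest to each other (log2 fold change -1.80, SE 0.30, adjusted p = 0.000375). Sqle, the squalene epoxidase, had 38, 22.5, 26.9 and 23.5 CPM in IUGR-HFhf and 64.1, 117 and 116 CPM in CON (log2 fold change -1.82, SE 0.40, adjusted p = 0.00818). Idi1, the isopentenyl diphosphate isomerase, had 58.7, 24.8, 22 and 20.7 CPM in IUGR-HFhf and 70, 124 and 123 CPM in CON (log2 fold change -1.73, SE 0.39, adjusted p = 0.00928).

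Hsd17b7, a reductase of a late step, had 14.3, 8.18, 8.62 and 11.1 CPM in IUGR-HFhf against 18.5, 39 and 31.6 CPM in CON, without overlap (log2 fold change -1.48, SE 0.28, adjusted p = 0.00167). The demethylase Cyp51 and the mevalonate kinase Mvk had log2 fold changes of -1.01 and -0.69. The promoters were searched on both strands for the sterol response element core, CACCCCAC, and for CCAAT, the letters that the factor NF-Y binds. Of the 18 tested members with a promoter entry, 1 held the sterol core, against 2.57% of all promoters. None of the 5 called members with an entry did. Only these exact letters were counted, so the search cannot show that a promoter lacks a variant of the site. CCAAT was in 15 of the 18, against 37.7% of all promoters, and also in 11 of 18 promoters of the fatty acid synthesis list, which moved the other way. Hmgcs1 and Hsd17b7 were called under each alternative tried, and 2 members were called without CON library 2, 3 without CON library 3 and 4 without IUGR-HFhf library 2.

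Between IUGR-HFhf and HFhf livers no member of this list passed the test. Hmgcs1 had 139, 97.9, 128 and 201 CPM and Sqle 11.3, 12.8, 15.5 and 29.9 CPM in HFhf, which overlapped the IUGR-HFhf libraries in both genes. For IUGR-HFhf over HFhf, 25 of the 26 members had a log2 fold change above 0, with a median of 0.59. The list's median over the members, as the log2 difference of each library from the CON mean, was -0.30, -0.59, -0.58 and -0.41 in IUGR-HFhf and -1.59, -1.28, -1.32 and -0.58 in HFhf, against -0.21, 0.26 and 0.01 in CON.

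**Figure D3:**
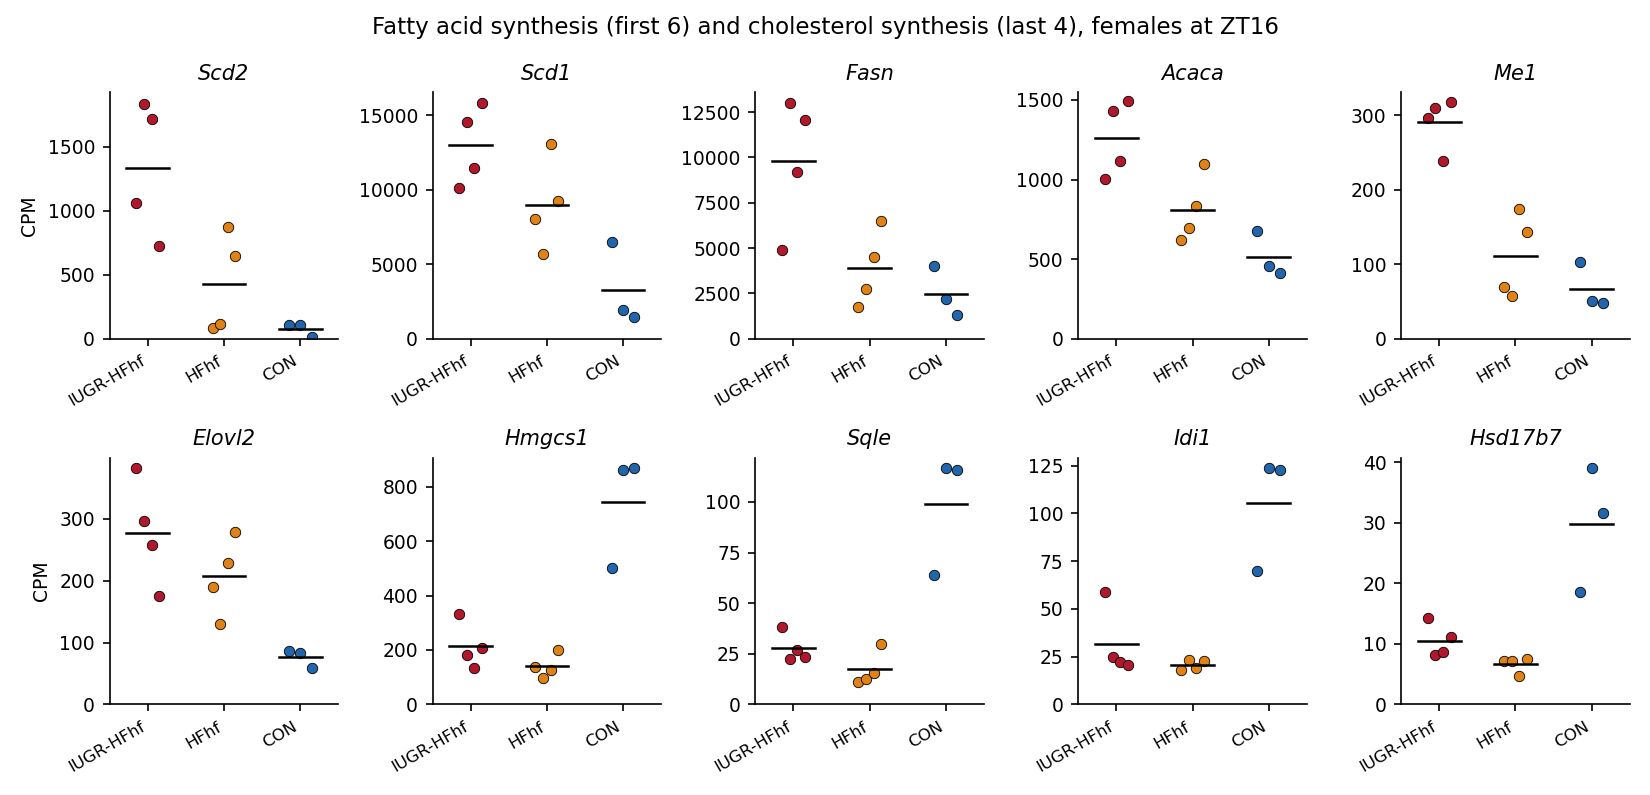
CPM of genes of fatty acid synthesis (first 6 panels) and of cholesterol synthesis (last 4 panels) in female livers at ZT16. Each point is a library of IUGR-HFhf, HFhf or CON, the lines are group means, and the vertical axes start at 0. IUGR-HFhf lies above CON in the first 6 panels and below CON in the last 4, and HFhf lies lowest on average in the 4 cholesterol panels.

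Sugar use, fat oxidation and the respiratory chain were mostly above 0 with small changes. The share of all genes called higher was 1.16%. Of 25 genes of glucose and fructose use, 23 were above 0 with a median of 0.50, and 3 were called higher: the pyruvate kinase Pklr (1178 ± 235 CPM in IUGR-HFhf and 577 ± 237 CPM in CON, log2 fold change 1.03), the glycolytic kinase Pgk1 (0.50) and Gpd1 (0.54), which makes the glycerol backbone of triglyceride. The number called was 0 without IUGR-HFhf library 2, without CON library 2 or without CON library 3, and 1 without IUGR-HFhf library 3 or 4. The fructose kinase Khk and Mlxipl, which encodes ChREBP, had log2 fold changes of 0.24 and 0.49, with overlapping groups and adjusted p of 0.646 and 0.239. Dlat, a subunit of pyruvate dehydrogenase, had 48.9, 79.7, 53.3 and 62.4 CPM in IUGR-HFhf against 32.3, 15.6 and 18 CPM in CON (log2 fold change 1.46, SE 0.29, adjusted p = 0.00275), the 1 call among 18 genes of the tricarboxylic acid cycle list.

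Of 35 fatty acid oxidation genes, 31 were above 0 with a median of 0.31. The 5 called higher, against 1.16% of all genes, were Acaa1b, Vnn1, Hadha, Acot2 and Etfdh. Acaa1b, a peroxisomal thiolase, had 45.1, 70.4, 54.9 and 86.9 CPM in IUGR-HFhf and 27, 22.1 and 24.8 CPM in CON (log2 fold change 1.38, SE 0.27, adjusted p = 0.00293). Vnn1, a pantetheinase induced by PPARα, averaged 22.7 ± 2.07 and 6.39 ± 4.03 CPM (log2 fold change 1.83). In both genes the groups did not overlap. The carnitine palmitoyltransferase Cpt1a, which admits fatty acids into mitochondria, was at -0.06 on the log2 scale (SE 0.32, adjusted p = 0.971). The number called was 2 without CON library 1, 2 or 3 or without IUGR-HFhf library 1 or 2, and 3 without IUGR-HFhf library 4.

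The oxidative phosphorylation list had 50 of 51 members above 0, a median of 0.28, and 25 members with every IUGR-HFhf library above every CON library (7.35% of all genes). Cox8a (0.55), Atp5a1 (0.32) and Atp5g3 (0.53), subunits of cytochrome oxidase and ATP synthase, were called higher; none was without CON library 2 or without CON library 3, 1 without IUGR-HFhf library 2 or 4, and 14 were with limma voom and sample weights. Of 8 genes of ketone body metabolism 2 were called higher and 1 lower, against 1.16% and 1.06% of all genes. The monocarboxylate carrier Slc16a1 rose (75.3 ± 10.9 CPM in IUGR-HFhf and 48.6 ± 5.69 CPM in CON, log2 fold change 0.63, adjusted p = 0.0213) and its relative Slc16a7 fell (-0.49), and no member was called without CON library 2 or without CON library 3.

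Genes of amino acid breakdown and of the methionine cycle were among those called lower. Of 29 genes of gluconeogenesis and amino acid breakdown, 22 were below 0 with a median of -0.42, and 5 were called lower with none higher, against 1.06% of all genes called lower. In 12 every IUGR-HFhf library lay below every CON library, against 6.41% of all genes, and in 1 the groups were separate the other way. Asl, the argininosuccinate lyase of the urea cycle, had 134, 146, 168 and 208 CPM in IUGR-HFhf against 444, 339 and 442 CPM in CON. The lowest CON library was well above the highest IUGR-HFhf library (log2 fold change -1.32, SE 0.21, adjusted p = 0.00016). Hpd, an enzyme of tyrosine breakdown, had 1213, 1213, 1089 and 1625 CPM in IUGR-HFhf and 2187, 2409 and 2164 CPM in CON (log2 fold change -0.81, SE 0.17, adjusted p = 0.00385). Asl and Hpd were called whichever library was left out.

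Sds, the serine dehydratase, had 1.56, 14.7, 16.6 and 3.11 CPM in IUGR-HFhf against 166, 45.8 and 118 CPM in CON (log2 fold change -3.64, SE 0.91, adjusted p = 0.0220). Both groups varied widely and did not overlap, and the call was lost without IUGR-HFhf library 1 or 4 or without CON library 1 or 3. The lysine-degrading Aass (-1.19) and the glutaminase Gls2 (-0.86) were the other called members, and without CON library 1 the list had 2. Pck1 and G6pc, the rate-limiting and final enzymes of gluconeogenesis, had overlapping groups and opposite signs, with log2 fold changes of -1.38 and 1.39 (adjusted p = 0.151 and 0.263). Of 19 genes of one-carbon metabolism and the methionine cycle, 7 were above 0 and 12 below, with a median of -0.19 and a range of -1.11 to 1.67. In this list 3 were called lower (Mat1a, Gnmt and Cbs) with none higher, against 1.06% of all genes called lower. Mat1a, which makes S-adenosylmethionine, had 1942, 2427, 2458 and 2591 CPM in IUGR-HFhf and 4442, 3334 and 4332 CPM in CON (log2 fold change -0.78, adjusted p = 0.0200). Gnmt, which consumes S-adenosylmethionine, and Cbs, which diverts homocysteine to cysteine, had log2 fold changes of -1.11 and -0.68; none of the 3 was called without CON library 1 or without CON library 3.

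**Figure D4:**
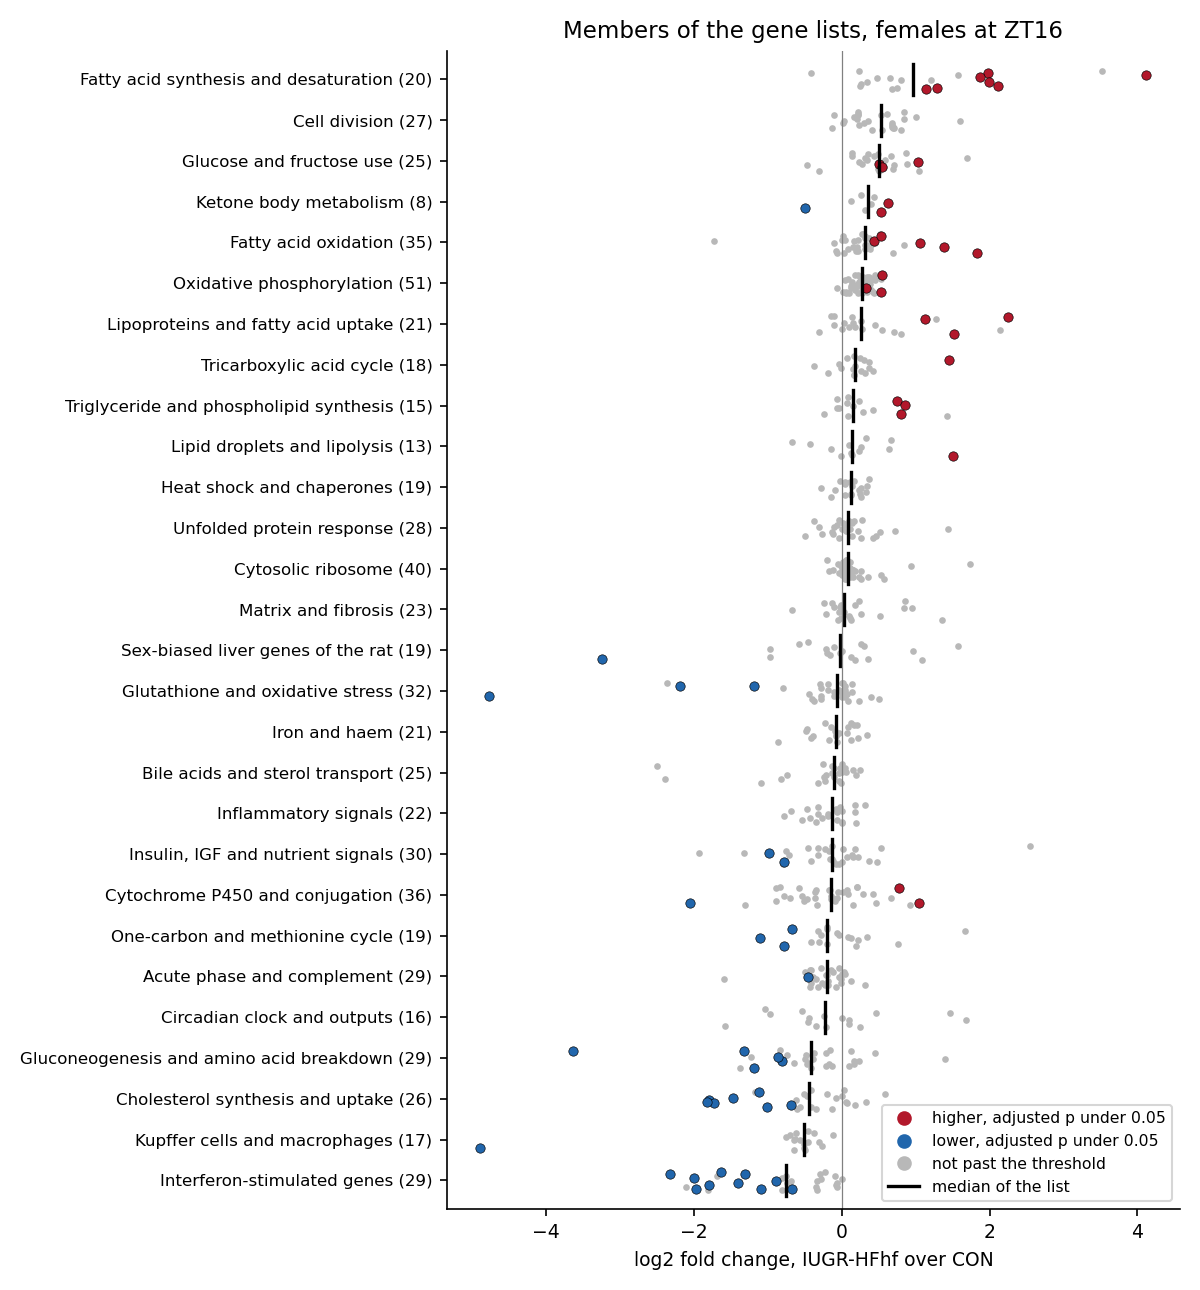
Log2 fold changes of IUGR-HFhf over CON for the tested members of the pathway lists and of the Kupffer cell and macrophage list in female livers at ZT16, ordered by the median. Each point is a gene, black lines are medians, and members called higher are red and called lower blue, with the number tested after each name. Fatty acid synthesis is highest with a median of 0.97 and interferon-stimulated genes are lowest with a median of -0.75.

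Among 30 genes of insulin, IGF and nutrient signals, 2 were called lower and none higher, against 1.06% of all genes called lower. Igf1, the growth factor that the liver secretes in response to growth hormone, had 354, 342, 407 and 334 CPM in IUGR-HFhf against 540, 675 and 630 CPM in CON. The groups were separate (log2 fold change -0.78, SE 0.12, adjusted p = 0.00016). Igfbp3, which carries IGF1 in blood, averaged 28.6 ± 6.60 and 56.7 ± 15.4 CPM (log2 fold change -0.98, adjusted p = 0.00707), and its call was lost without CON library 1. Fgf21, a fasting and sugar hormone of liver, averaged 8.62 ± 2.97 CPM in IUGR-HFhf and 1.47 ± 0.12 CPM in CON without overlap. It did not pass the test (log2 fold change 2.55, SE 0.75, adjusted p = 0.0600), but 6 of 15 alternatives called it, DESeq2 among them. Igfbp1, Igfbp2 and Irs2 had log2 fold changes of 0.54, -0.12 and 0.02 with overlapping groups. The log2 fold change of Hsd11b1, which regenerates active glucocorticoid, was -1.92 and did not pass (adjusted p = 0.0778), though 3 of 15 alternatives called it.

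Detoxification genes moved in both directions. Akr1c1, a hydroxysteroid dehydrogenase, had 0.54, 0.45, 0.13 and 1.04 CPM in IUGR-HFhf against 25.1, 24 and 21.0 CPM in CON, and 0.73, 0.26, 17.3 and 4.38 CPM in HFhf. The IUGR-HFhf values rested on 8, 3, 2 and 10 reads (log2 fold change -5.52, SE 1.26, adjusted p = 0.010), and the call was lost by a small margin with limma voom (adjusted p = 0.0513). Members of this family are close copies of each other, so reads may have been divided between them. Gstm2, a glutathione transferase, had 19.2, 78.0, 52.8 and 26.6 CPM in IUGR-HFhf and 200, 214 and 184 CPM in CON (log2 fold change -2.18, SE 0.38, adjusted p = 0.000577), again within a family of near copies.

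Of 32 genes of glutathione and oxidative stress 3 were called lower (Gstm2, the quinone reductase Nqo1 at -1.19 and the metallothionein Mt2A at -4.78), and 1 was called without IUGR-HFhf library 2 or 3 or without CON library 3. For this list and the next, 1.16% of all genes were called higher and 1.06% lower. Mt2A averaged 0.46 ± 0.18 CPM in IUGR-HFhf and 13.5 ± 10.6 CPM in CON, and was called only with all 7 libraries or without CON library 1 or 2. Of 36 cytochrome P450 and conjugation genes, Cyp2c22 (1.04) and Cyp2b3 (0.77) were called higher and Fmo1 (-2.06) lower, although the Fmo1 groups overlapped. That list had 6 calls without CON library 1, none without CON library 3, and 1 without CON library 2 or without IUGR-HFhf library 2 or 3. Nnmt, which methylates nicotinamide and was chosen after its values were seen, had 15.6, 15.2, 19.3 and 16.8 CPM in IUGR-HFhf and 71.4, 36.5 and 51.1 CPM in CON (log2 fold change -1.67, SE 0.30, adjusted p = 0.00135), and was called whichever library was left out.

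No member was called in the lists of bile acids and sterol transport (25 tested), the unfolded protein response (28), heat shock (19), the circadian clock and its outputs (16), iron and haem (21), inflammatory signals (22), matrix and fibrosis (23), cell division (27) or the cytosolic ribosome (40). Cell division genes were nevertheless above 0 in 25 of 27 with a median of 0.53. The bile acid synthesis enzyme Cyp7a1 had 230, 480, 361 and 217 CPM in IUGR-HFhf and 661, 881 and 517 CPM in CON, without overlap, and did not pass the test (log2 fold change -1.09, SE 0.58, adjusted p = 0.412). Complement C3 was the 1 call among 29 acute phase and complement genes (-0.46), and was called without IUGR-HFhf library 4 but not without any other library. Among 19 sex-biased liver genes 1 was called, lower, which was Stac3, against 1.06% of all genes called lower. Of the markers of other cell types, Eng of 9 endothelial markers was called lower (-0.38; not without IUGR-HFhf library 3 or 4 or CON library 2 or 3) and Apoa1 of 12 hepatocyte markers higher, and none of the markers of stellate cells, bile duct, lymphocytes, neutrophils, red cells, muscle, pancreas or fat tissue was called. The clock output gene Dbp had a log2 fold change of -0.97 with overlapping groups (adjusted p = 0.645).

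The genes with the largest changes included several outside these groups. By rule, the 10 largest rises with a mean of at least 5 CPM and separate groups were Scd2, Sult4a1, Pnpla5, Dmrta1, Fabp2, Me1, Prom1, Scd1, Fasn and Ttc25. Sult4a1, a sulfotransferase best known in brain, had 91.2, 107, 103 and 93.5 CPM in IUGR-HFhf against 18.9, 1.46 and 0 CPM in CON (log2 fold change 3.76, SE 0.92, adjusted p = 0.0176). Pnpla5, a lipase of the adiponutrin family, had 157, 144, 166 and 184 CPM in IUGR-HFhf and 37.8, 6.34 and 0.32 CPM in CON (log2 fold change 3.42, adjusted p = 0.0401). The CON libraries had the wide spread and the IUGR-HFhf libraries were tight in both genes, and without CON library 2 or without CON library 3 neither was called. Pnpla5 was also not called without any 1 of the IUGR-HFhf libraries. Dmrta1 (log2 fold change 3.30), Prom1 (2.0) and Ttc25 (1.96) were likewise not called without CON library 3.

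The 10 largest falls were Akr1c1, Marco, Mt2A, Sds, Stac3, Slc13a3, Usp18, Gstm2, Mx2 and Irf7. Stac3, known for its role in muscle excitation, averaged 6.35 ± 6.53 CPM in IUGR-HFhf and 56.9 ± 53.6 CPM in CON, where library 1 alone had 118 CPM. Slc13a3, a dicarboxylate carrier, averaged 4.16 ± 3.40 and 24.6 ± 16.2 CPM. The call of Stac3 was lost without CON library 1 or IUGR-HFhf library 1, and that of Slc13a3 without CON library 3. Foxp2, a transcription factor chosen after its values were seen, had 7.24, 6.25, 3.51 and 5.07 CPM in IUGR-HFhf against 0.07, 0 and 0.16 CPM in CON. It was called whichever library was left out (adjusted p = 0.000126). Of 59 named genes that were called, 17 stayed called without each of the 7 libraries in turn. These were Irf7, Ifit3, Irf9, Marco, Plin2, Dgat2, Lpcat3, Hmgcs1, Hsd17b7, Acaa1b, Vnn1, Asl, Hpd, Igf1, Akr1c1, Gstm2 and Slc22a8. Of these, Vnn1, Gstm2 and Slc22a8 were not called with only the compared groups in the fit.

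The HFhf females at ZT16 shared the postnatal diet type but not the restriction before birth. Their dams also ate the Western diet from gestation day 11. The restriction and the diet before birth differ together between IUGR-HFhf and HFhf, so their parts cannot be told apart. Against these HFhf females, 1 gene of 11047 was called (0.00905%), and 627 had an unadjusted p under 0.05. DESeq2 called 11, and edgeR the 1. The gene was Clip1, a microtubule plus-end protein, with 37.2, 36.9, 36.9 and 34.4 CPM in IUGR-HFhf and 58.7, 60.3, 58.7 and 64.2 CPM in HFhf. These groups were widely separate (log2 fold change -0.73, SE 0.14, adjusted p = 0.0284), while the CON livers had 38.7, 43.4 and 35.5 CPM. The call held without HFhf library 1 and was lost without any other of the 8 libraries (adjusted p up to 0.159). The comparisons of IUGR-HFhf with HFhf and with CON share the IUGR-HFhf libraries. The median interval of a log2 difference from HFhf reached 0.35 to either side of the estimate, so smaller differences could not be seen for most genes. That interval is for a single gene, without adjustment for the number tested, so larger differences could be missed too. Those of Me1 (1.39, adjusted p = 0.586) and Scd2 (1.64, adjusted p = 0.835) were not called.

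For the change at ZT16 in females minus that in males, 3 genes were called (0.0272%) and 557 had an unadjusted p under 0.05. Slc22a8, an organic anion carrier, had 104, 15, 17 and 78 reads in IUGR-HFhf females and none in the 3 CON females, at least 54.9-fold higher in CPM when CON is put at a floor of 3 reads over the group. In males it averaged 101 ± 51.9 CPM in IUGR-HFhf and 199 ± 17.9 CPM in CON, so the direction was opposite (adjusted p of the difference = 0.000208). Sult2a6, a bile acid and steroid sulfotransferase, averaged 1075 ± 344 CPM in IUGR-HFhf females and 1248 ± 249 CPM in CON females. In males it averaged 272 ± 135 and 26.1 ± 11.9 CPM (log2 difference of the changes -3.59, SE 0.59, adjusted p = 0.00196).

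Adh6, an alcohol dehydrogenase, averaged 147 ± 24.3 CPM in IUGR-HFhf females and 239 ± 70.8 CPM in CON females, and 90.3 ± 17 and 22.3 ± 4.37 CPM in males (log2 difference -2.72, SE 0.49, adjusted p = 0.00561). In the CON livers Slc22a8 averaged higher in males, and Sult2a6 and Adh6 averaged higher in females. Without the male CON library 1, Adh6 was not called (adjusted p = 0.0704), with only the groups of the comparison in the fit neither Slc22a8 nor Sult2a6 was called, and Slc22a8 was not called by limma voom. For the change in females at ZT16 minus that at ZT4 none of the 11047 genes was called (0%) by edgeR, 606 had an unadjusted p under 0.05, DESeq2 called 12 and limma voom with sample weights 4.

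**Figure D5:**
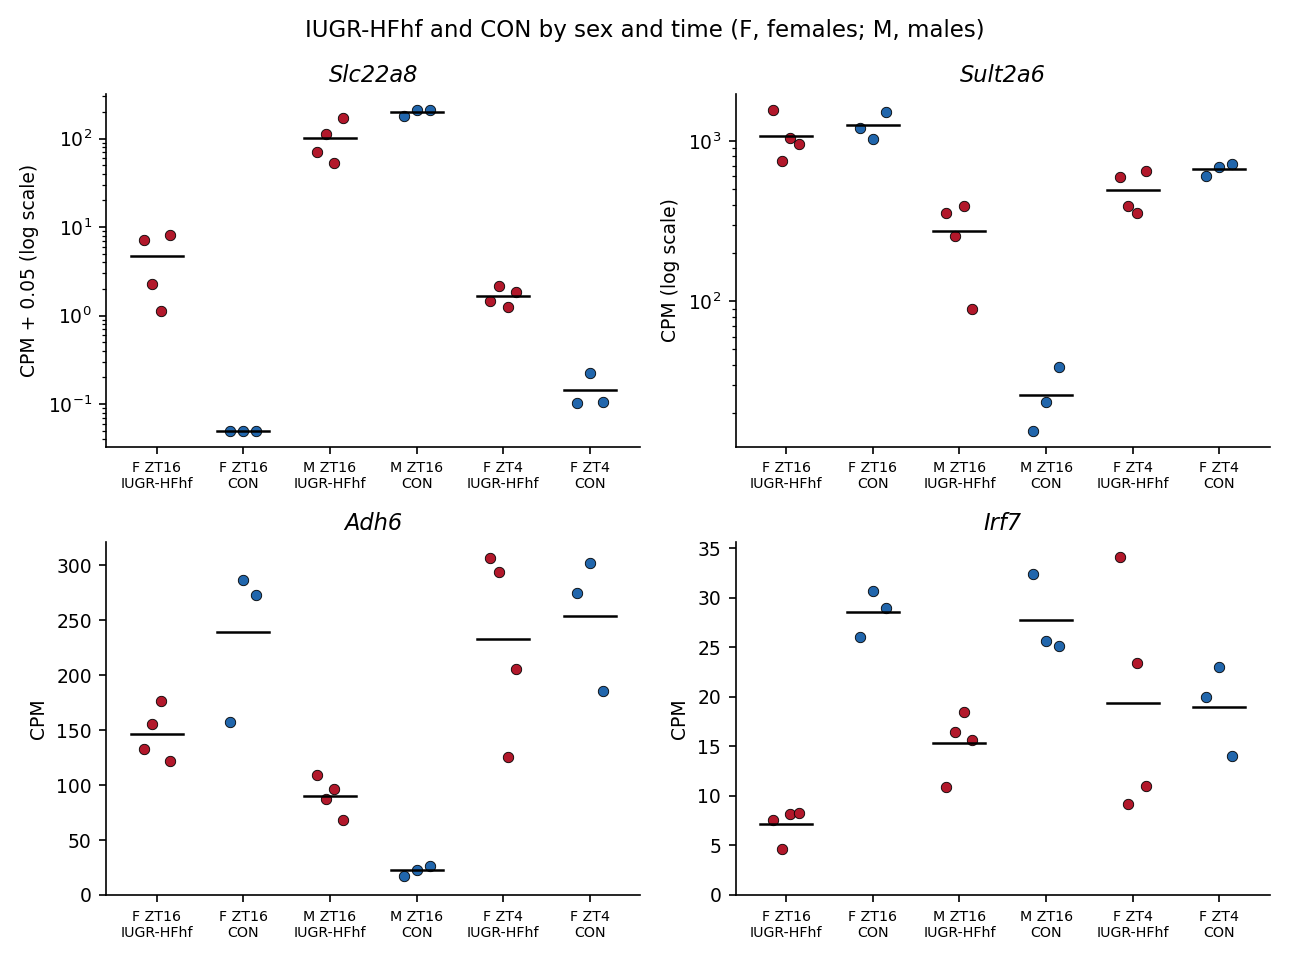
CPM of Slc22a8, Sult2a6, Adh6 and Irf7 in IUGR-HFhf (red) and CON (blue) libraries of females at ZT16, males at ZT16 and females at ZT4. Each point is a library and the lines are group means; Slc22a8 (with 0.05 CPM added) and Sult2a6 are on log axes, and the axes of Adh6 and Irf7 start at 0. Sult2a6 and Adh6 are higher in IUGR-HFhf than in CON males and Irf7 is separate from CON in both sexes at ZT16 but not at ZT4.

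In the authors' deposited table of the same comparison, 90 genes were marked higher and 70 lower. Of these 62 and 56 were called in the same direction here and none in the opposite direction, which is 73.8% of the authors' calls and 48.2% of the calls here. A 2-fold change or more is also required for a call there. Acly, Pnpla3 and Fgf21, which were not called here, were marked higher there, and Hsd11b1, also not called here, was marked lower.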

How the data were processed

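Per the labels' protocols, stranded libraries were made from liver RNA after ribosomal RNA was removed, and read on an Illumina HiSeq instrument; the molecule label reads polyA RNA. Tools in the submitters' processing notes, without versions, are STAR, featureCounts from Subread, FastQC and DESeq2, with rn6 as the build. The deposited table holds raw counts of reads per gene for 17337 genes and 56 libraries; 2487 genes had no read. Because the header lacks a name for the gene column, each sample name was moved on by 1 column. Symbols changed into dates (26) and duplicates (2) were kept as they stand. The authors' deposited table of the comparison gives log2 fold changes and adjusted p-values of their DESeq2 fit, per the file headers. Its mean signal is an average of counts over size factors, per the file headers, and its score of 1, 0 or -1 is the authors' call. It was used only to compare calls.

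Counts were filtered with filterByExpr, scaled by TMM and fitted for all 56 libraries (16 groups of sex, time and diet, 40 residual degrees of freedom) with the robust quasi-likelihood test of edgeR 4.0.16 in R 4.3.3. Tests were two-sided and adjusted by the Benjamini-Hochberg method over 11047 genes, in each of 4 comparisons, with a threshold of 0.05. The pooled spread takes no account of unequal spread between groups. CPM use TMM-scaled library sizes; a standard error is |log2 fold change|/√F. Library pairs within a group differed by more than counting error (chi-square per degree of freedom of at least 13.5), so none was a repeat of another. The procedure was tested on simulated data.

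Members and gene lists (39 lists, 842 of 872 entries matched, 6 by synonym) were chosen with earlier results of these data known. Named genes were the 10 largest rises and falls with a mean of at least 5 CPM, separate groups and a gene symbol; for each list with at least 3 calls, the 3 members with the smallest p; the 3 largest in each direction of the other comparisons with a mean of at least 1 CPM; and a set of metabolic genes whatever they showed; some of the genes so chosen are not reported here. Other genes named as called members of a list complete that list. Alternatives were scaling by relative log expression, no filter, DESeq2 1.42.0, limma 3.58.1 voom with sample weights, fits without the IUGR-RC libraries, without 4 libraries of other groups that stood apart in earlier results, or with only the compared groups, the run of title numbers as a term, a 2-fold rule, and leaving out each library. Promoter sequences are from RefSeq (GRCr8) and genes were matched by symbol.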

Additional observations from a re-analysis of the deposited data

Results flagged for a closer look

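In 9 of 115 sets of 4 libraries that were checked, the highest or lowest value stood apart by Dixon's criterion (a gap to the nearest value that is a large share of the range, given as the gap ratio); chance gives about 1 in 20. IUGR-HFhf library 4 was high for G6pc (0.961, 638.5 CPM against 171 to 189 CPM in the other IUGR-HFhf libraries), Atp5a1 (0.89), Cbs (0.885), Fmo1 (0.862) and Khk (0.84), and low for Clip1 (0.884). IUGR-HFhf library 2 was low for Ifit3 (0.872), IUGR-HFhf library 1 was high for Idi1 (0.891), and IUGR-HFhf library 3 was high for Cpa1 (0.847).

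The effect of IUGR-HFhf differed between females and males at ZT16 by the interaction test for Slc22a8 (log2 difference 9.56, which depends on the prior count because CON females had no read), Sult2a6 (-3.59) and Adh6 (-2.72).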

How the results depend on the processing

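The 245 calls of IUGR-HFhf against CON became 574 with limma voom, 374 without the IUGR-RC libraries, 368 with the run of title numbers as a term and 123 under the 2-fold rule, and 74 to 262 when 1 library was left out. They were 245 with relative log expression factors, 202 without a filter, 345 with DESeq2, 332 without the 4 libraries that stood apart and 181 with only the compared groups. Of these 181, 118 were among the 245 calls of the fit reported. No gene called in both the fit reported and an alternative changed sign. Of 59 named called genes, 13 were called in all 15 settings other than the 2-fold rule, and none was reversed. Against HFhf the 1 call became 11 with DESeq2, 5 with only the compared groups and 0 under the 2-fold rule, and 0 to 2 with 1 library left out. For females minus males the 3 calls became 28 with DESeq2, 16 with limma voom, 9 without the IUGR-RC libraries, 10 with only the compared groups, 11 without the 4 libraries and 10 with the run term, and 2 to 8 with 1 library left out. For ZT16 minus ZT4 the 0 calls became 12 with DESeq2, 4 with limma voom, 4 without the IUGR-RC libraries, 1 with only the compared groups and 2 with the run term, and 0 to 2 with 1 library left out. The causes were not tested. No paired analysis was possible because the labels give no replicate numbers. The interval of a log2 fold change of IUGR-HFhf over CON reached 0.381 to either side at the median, so smaller changes were not detectable for most genes. That interval is not adjusted for the number of genes tested, so larger changes could be missed too. An example is Pnpla3 at 3.53 (adjusted p = 0.0894).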

Other observations

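Of the 245 called genes, 66 belonged to any of the lists and 179 to none. Several genes in no list, chosen after their values were seen, act in metabolism. Ldha, the lactate dehydrogenase subunit of glycolytic tissues, had 107, 107, 98.7 and 86.8 CPM in IUGR-HFhf against 55.7, 43.6 and 51.8 CPM in CON (log2 fold change 0.99, SE 0.21, adjusted p = 0.00446), and lost its call without CON library 2. Bckdk, the kinase that shuts off branched-chain amino acid breakdown, averaged 80.5 ± 32.9 CPM in IUGR-HFhf and 31.3 ± 4.26 CPM in CON (log2 fold change 1.36, adjusted p = 0.00818), and lost its call without CON library 3. Dbi, which binds acyl-CoA, averaged 645.5 ± 153 and 297 ± 65.8 CPM (log2 fold change 1.12, adjusted p = 0.0342). The amino acid carrier Slc38a4 averaged 633 ± 38.8 and 1042 ± 101 CPM without overlap (log2 fold change -0.72, adjusted p = 0.0278). The calls of Dbi and Slc38a4 were lost without CON library 2, without CON library 3 or without IUGR-HFhf library 1 or 2, and that of Slc38a4 also without CON library 1.

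The sterol exporter genes Abcg5 and Abcg8, targets of the sterol sensor LXR, were not called. Abcg5 had 0.34, 1.34, 2.11 and 0.83 CPM in IUGR-HFhf against 2.41, 8.66 and 8.94 CPM in CON (log2 fold change -2.49, SE 0.72, adjusted p = 0.0546), and Abcg8 averaged 0.43 ± 0.24 and 2.48 ± 1.88 CPM (adjusted p = 0.128). Slc5a10, a sugar carrier of kidney likewise chosen after its values were seen, had 3.79, 0.30, 0.57 and 3.93 CPM in IUGR-HFhf and none in CON. It was called whichever library was left out (adjusted p = 0.00207 with all libraries), but its level was low in every library. The HFhf livers had 0.99, 0.09, 1.36 and 0.22 CPM, which overlapped IUGR-HFhf.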
